A study of Mus musculus with 24 samples.

Results

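The 6 libraries described here measured which transcripts an antibody to N6-methyladenosine (m6A) pulled down from CD11b+ myeloid cells of unirradiated mice labelled Ythdf2 cKO. They were 3 m6A immunoprecipitation libraries (IP) and 3 libraries of the RNA before the pull-down (Input), chosen by their labels from the 24 libraries of the series. The mice carried floxed Ythdf2 alleles (Ythdf2 f/f) and Lyz2-Cre, in which Cre recombinase is expressed from the Lyz2 locus of myeloid cells, and bore tumours of MC38, a mouse colon carcinoma line. Their controls, used below for 1 comparison, were the 3 IP and 3 Input libraries labelled WT Ctrl, from Ythdf2 f/f mice without Cre that carried the same tumours and received no irradiation. The other 12 libraries came from mice whose tumours had been irradiated and are not described. The cells were sorted with beads on CD11b, which is shared by monocytes, macrophages, granulocytes and some dendritic cells, and each library held RNA of pooled mice aged 8 to 10 weeks, which the methods call technical replicates in 1 place and biological replicates in another. The p-values below therefore measure the spread between these libraries, which may be technical. In pooled bulk RNA, fewer cells of a type and less RNA per cell cannot be told apart.

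N6-methyladenosine is the most common internal modification of eukaryotic messenger RNA. A writer complex built around METTL3 and METTL14 deposits it on nascent transcripts, preferentially in long exons and around stop codons, and the demethylases FTO and ALKBH5 can remove it. YTHDF2 is a cytoplasmic reader that binds methylated transcripts and brings them to the CCR4-NOT deadenylase for decay, so that its loss is known to leave methylated transcripts more stable. The antibody enriches fragments that carry the mark, and the ratio of IP to Input per gene is a relative measure.

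Peak calls located the pulled-down fragments. The 3 cKO IP libraries held 15503, 16263 and 16056 peaks, with median fold enrichments of 3.41, 3.27 and 3.34, and 10918 regions, in 4444 genes, were called in all 3. These shared peaks had a median width of 299 bases, and their summits, the positions of highest enrichment, spread over a median of 8 bases between libraries. The fold in the weakest of the 3 libraries had a median of 2.92 and reached at least 4 in 3241 peaks. The highest peak lay in the coding sequence of Plet1, a surface protein of epithelial progenitors and some myeloid cells, at chr9:50498951-50499296 (GRCm38, the assembly also called mm10), with folds of 51.6, 52.3 and 52.6. The other peaks among the 10 highest were found in Car4 (chr11:84963956-84964868, intron of the reference transcript, folds of 33.3, 35.8 and 35.6), in Ccdc80 (chr16:45093678-45094399, 5′ UTR, 36.7, 30.2 and 38.3, and 1 in an intron), in Cish (chr9:107299737-107301950, CDS, 41.5, 26.8 and 30.4), in Rnase2a (chr14:51255266-51255969, CDS, 26.9, 27.4 and 25.4), in Ffar2 (chr7:30818357-30820417, 3′ UTR, 23.4, 28.5 and 40.8), in Kifc5b (chr17:26922826-26923282, CDS, 24.2, 22.9 and 26.8) and at 2 further places in Plet1. All of them were also called in all 3 WT Ctrl IP libraries.

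The sequence around the summits shows what the antibody signal lay on. The bases within 50 of the summit are given on the transcript strand (reference genome, GRCm38) for 5 of the highest peaks whose window was wholly coding (in Plet1, that of the peak at chr9:50494482-50494743, with folds of 25.8, 24.96 and 26.4), with the sequence GGACT, a form of the known methylation motif, in capitals where it occurs.
Plet1, chr9:50494565-50494665, plus strand: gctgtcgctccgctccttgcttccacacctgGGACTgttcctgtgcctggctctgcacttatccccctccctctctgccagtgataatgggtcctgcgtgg
Rnase2a, chr14:51255613-51255713, minus strand: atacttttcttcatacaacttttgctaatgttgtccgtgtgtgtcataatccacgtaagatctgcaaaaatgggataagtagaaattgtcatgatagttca
Kifc5b, chr17:26923104-26923204, plus strand: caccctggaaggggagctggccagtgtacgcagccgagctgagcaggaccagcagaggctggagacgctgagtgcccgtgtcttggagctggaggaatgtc
Id1, chr2:152736492-152736592, plus strand: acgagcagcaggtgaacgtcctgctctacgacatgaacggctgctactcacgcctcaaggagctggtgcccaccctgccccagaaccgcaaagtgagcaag
Inhba, chr13:16017426-16017526, plus strand: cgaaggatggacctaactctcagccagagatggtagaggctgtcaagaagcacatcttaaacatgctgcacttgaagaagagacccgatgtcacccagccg
Only the Plet1 window among these 5 held GGACT on the transcript strand. The motif lay within 100 bases of the summit of the best peak in some of the other named genes, and in 21.1% of all shared peaks. For 9 such genes, picked because they held it, 29 bases around it are given. They show its setting in receptors, condensin and topoisomerase genes and the writer subunit Wtap. The Smpdl3b stretch lies outside its called peak (chr4:132746590-132746801). The summit of the Ccr1 peak differed by 1247 bases between libraries, so its distance to the motif is uncertain.
Car4, chr11:84964053-84964081, plus strand: aggccggagtaaGGACTctgcccactctg
Tlr4, chr4:66827747-66827775, plus strand: caggtgtcccagGGACTctgcgctgccac
Il1r2, chr1:40125142-40125170, plus strand: ggaaagacatatGGACTgaccaagctacg
Ccr1, chr9:123964543-123964571, minus strand: ctttgttgcccaGGACTcactgtctttaa
Smc4, chr3:69006047-69006075, plus strand: cgacctgactcgGGACTcttctgccgcag
Top2a, chr11:98995442-98995470, minus strand: aaattgaaagtgGGACTacatatcaggaa
Chd7, chr4:8866425-8866453, plus strand: ccagcactggcgGGACTccaaaacgccgt
Smpdl3b, chr4:132746557-132746585, minus strand: tggcccctggggGGACTacctctgcgatt
Wtap, chr17:12974763-12974791, minus strand: caataagactgtGGACTtcatgattgttg
Over all 10918 shared peaks, 11.1% of these windows held GGACT on the transcript strand (95% Wilson interval 10.6 to 11.8%) and 8.3% held it on the opposite strand. In coding sequence the share was 11.0%, beside 10.9% of 216080 windows of the same length tiled over the coding sequence of the tested genes. In 3′ UTRs it was 14.3%, beside 9.1% of tiled windows. The peak windows were cut from the genome and can run into introns, whereas the tiled windows were cut from spliced transcripts. The 2 kinds of share are therefore not of like sequence, and a motif excess at peaks cannot be read from them. Among peaks of at least 4-fold it was 12.3%. In the 7607 peaks of coding sequence and 3′ UTRs, GGACT ranked 369 of 1024 sequences of 5 bases by its frequency within 50 bases of the summit over that 100 to 200 bases away (ratio 1.07), and CGACG ranked highest (ratio 1.61). The bases 100 to 200 away were genomic too and can lie in introns. These matches describe letters in a window and locate no modified base.

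The libraries were deep and close to each other. The Input libraries held 71303126, 83661576 and 75318957 reads counted in genes and the IP libraries held 70551375, 73652590 and 71049843. Levels of pairs of libraries of 1 kind were almost the same across genes (median Spearman rho 0.996 for both kinds), although their counts differed by more than sampling noise in every pair, so that each counted as 1 library. Levels below are CPM, the count of a gene relative to all reads counted in genes in that library, scaled by the trimmed mean of M-values (TMM) method of edgeR, and the IP over Input ratio is given as log2 with its standard error. All calls are from the quasi-likelihood test of edgeR at a Benjamini-Hochberg adjusted p under 0.05 over the 15381 genes that reached 10 counts in 3 or more of the 6 libraries.

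Ythdf2, the targeted gene (chr4:132184912-132212303), was not low in the libraries labelled cKO. It stood at 194, 206 and 194 CPM in the Input libraries and 194, 178 and 179 CPM in the IP libraries, and the Input mean in the fit with WT (197 ± 6.77 CPM, SD, n = 3) was above that of WT Ctrl (106 ± 1.401 CPM). The gene count of Ythdf2 alone therefore shows no loss under the knockout label. Which exons are deleted is not given in the sources used here, so transcripts that lack them may still be counted, and the groups are named by their labels throughout. The log2 of its IP over Input ratio was close to 0 in cKO (-0.11 ± 0.03, adjusted p = 0.0032) and took the opposite sign when libraries were scaled by their totals alone, while in WT Ctrl the log2 ratio was 0.97. The gene held 2 shared peaks, the higher at chr4:132204944-132205196 in the coding sequence, with folds of 2.65, 3.097 and 2.65. Lyz2, whose locus carries the Cre, stood at 339, 329 and 333 CPM in the Input libraries and 86.9, 91.7 and 87.5 CPM in the IP libraries (log2 -1.91 ± 0.03). Its Input mean was 331 ± 4.26 CPM in the cKO libraries of the fit with WT and 22543 ± 329 CPM in WT Ctrl, a level in the WT Ctrl libraries far above that in the libraries labelled cKO.

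Defining markers of myeloid cells were present in all 6 libraries, given here as CPM without the TMM scaling. The 5 myeloid markers summed to between 2409 and 2429 CPM in Input and between 2142 and 2167 CPM in IP. The 9 markers of monocytes and macrophages summed to between 7114 and 7278 CPM in Input and between 2375 and 2470 CPM in IP, and 7 of them were depleted in IP. The 6 neutrophil markers summed to between 671 and 687 CPM in Input and between 604 and 632 CPM in IP, and 4 were depleted and 1 enriched. This sum came mostly from S100a8 (log2 -0.02) and S100a9 (-0.24). Ly6g (-2.72), Retnlg (-2.90) and Csf3r (-2.51) were lower, and Cxcr2 (0.62) was higher. The sum of the 5 dendritic cell markers rose, from between 305 and 307 CPM to between 486 and 494 CPM, and 3 of the 4 tested were enriched. It came mostly from Itgax (0.43), and Flt3 was depleted (-3.24). The 5 T cell markers summed to between 2.46 and 2.81 CPM in Input and between 0.156 and 0.299 CPM in IP, and the 3 of endothelium to between 2.50 and 3.02 CPM and between 5.80 and 7.39 CPM. Those of B cells, NK cells, fibroblasts and erythroid cells summed to under 1 CPM in every library. Of the 4 carcinoma cell markers, Krt8 had no count, Krt18 was nearly absent and Epcam stayed under 1 CPM, and the sum, between 5.64 and 6.18 CPM in Input and between 124.0 and 128.7 CPM in IP, came almost wholly from Cdh1, which encodes E-cadherin (5.08, 5.71 and 5.44 CPM in Input, 128, 123.1 and 127 CPM in IP, log2 4.25). The 3 platelet markers fell in the other direction, from between 25.7 and 27.4 CPM to between 1.85 and 2.20 CPM. IP and Input libraries were made from the same kind of sorted cells, and whether a pair shared 1 pool of RNA is not given in the sources used here. The part of cell makeup in the ratios was not tested.

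About as many genes were enriched as were depleted in IP over Input. Of the 15381 genes tested, 6267 (40.7%) were enriched in IP over Input, 6112 (39.7%) were depleted and 3002 were not called. At least 2-fold enrichment was found for 3151 genes (20.5%) and at least 2-fold depletion for 3085 genes (20.1%). The log2 ratio had a median of 0.01, with 25% of genes under -0.81 and 25% above 0.82. It exceeded 8-fold in 407 genes and was below 8-fold depletion in 427. The 3 IP values lay wholly above or wholly below the 3 Input values in 12652 genes (82.3%). With libraries scaled by their totals alone, which moved the median of all genes to 0.30, 7739 genes were enriched and 4786 depleted, so that the share of enriched genes among those called was 61.8% instead of 50.6%. The ratios below are relative to the median gene.

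**Figure D1:**
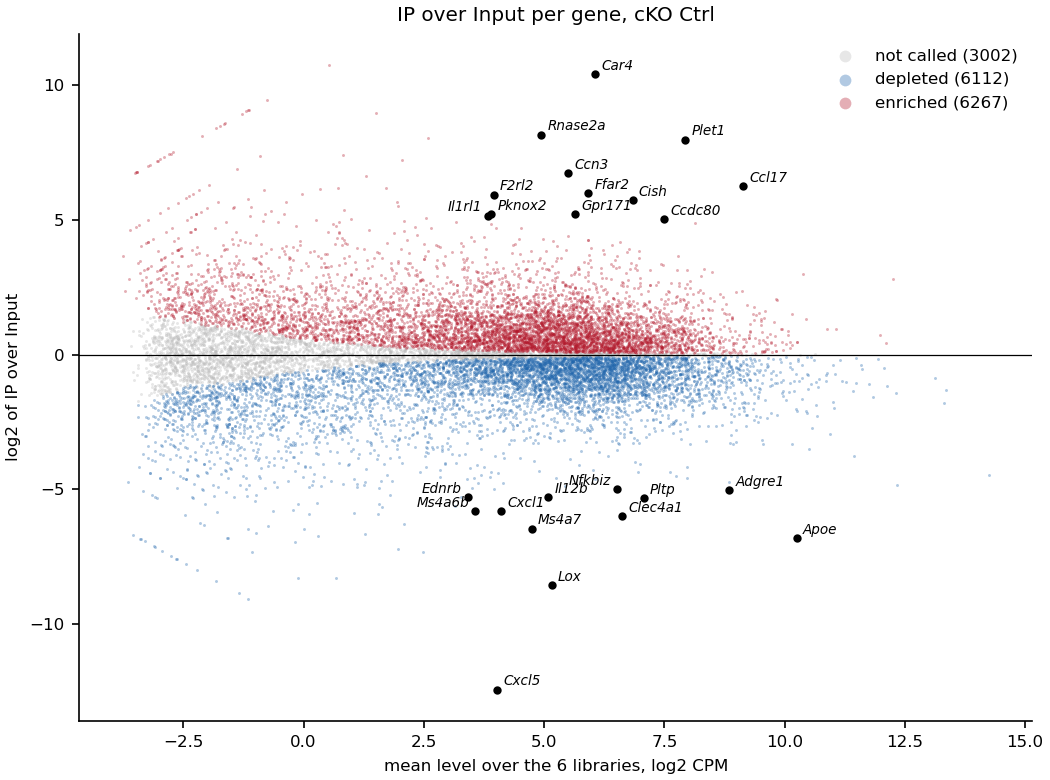
The log2 ratio of IP to Input (vertical axis) is plotted against the mean level over the 6 libraries in log2 CPM (horizontal axis) for the 15381 genes tested, with enriched and depleted genes in separate colours and the 12 highest and 12 lowest protein-coding genes named. Car4 (10.42) stands far above the other named genes, and the 10 genes with the highest Input level lie below 0.

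The highest ratios among protein-coding genes were taken from genes with a mean of at least 10 CPM over the 6 libraries, which an enriched gene can pass through its IP level alone. Car4 (chr11:84957786-84966044), which encodes the membrane-bound carbonic anhydrase 4, stood at 0.156, 0.119 and 0.0147 CPM in the Input libraries and 133, 134 and 134 CPM in the IP libraries (log2 10.42 ± 0.10). The 3 Input values rest on 20 counts in all, so the size of this ratio is uncertain although the groups are far apart. Rnase2a, a member of the eosinophil-associated ribonuclease family with near-identical copies, stood at 0.311, 0.06597 and 0.279 CPM in the Input libraries and 64.4, 58.98 and 60.3 CPM in the IP libraries (log2 8.16 ± 0.13). Plet1 stood at 1.81, 1.95 and 2.01 CPM in the Input libraries and 490.1, 481 and 490 CPM in the IP libraries (log2 7.98 ± 0.04). The rule that picked these genes also asked for no overlap between IP and Input libraries, which 82.3% of all genes met. Their separation was thus set by the choice. Ccl17, a chemokine that attracts CCR4+ T cells, stood at 15.1, 14.5 and 13.9 CPM in the Input libraries and 1099, 1113 and 1109.7 CPM in the IP libraries (log2 6.26 ± 0.03). Cish, a cytokine-inducible SH2 protein that restrains STAT5 signalling, stood at 4.08, 4.31 and 4.26 CPM in the Input libraries and 216, 226 and 232 CPM in the IP libraries (log2 5.73 ± 0.05). Ffar2, a receptor for short-chain fatty acids, stood at 1.54, 1.66 and 2.34 CPM in the Input libraries and 115, 121 and 120.1 CPM in the IP libraries (log2 6.005 ± 0.07). The other 6 of the 12 highest protein-coding genes were Ccn3 (6.72), a matricellular protein, F2rl2 (5.94), a protease-activated receptor, Pknox2 (5.22), a homeodomain protein, Gpr171 (5.22), a G protein-coupled receptor, Il1rl1 (5.16), the receptor of interleukin-33, and Ccdc80 (5.04), an extracellular matrix protein. All 12 held between 1 and 8 shared peaks.

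The lowest ratios were taken by the same mean of at least 10 CPM, which a depleted gene can pass through its Input level alone, so that genes of lower level such as Il10, described below, were left out. Apoe (chr7:19696109-19699188), which encodes a lipid carrier made by macrophages, stood at 2439, 2343 and 2456 CPM in the Input libraries and 19.6, 21.9 and 22.2 CPM in the IP libraries (log2 -6.83 ± 0.04). Adgre1 (chr17:57358691-57483527), which encodes the F4/80 surface marker of mouse macrophages, stood at 911, 894 and 877 CPM in the Input libraries and 26.4, 27.6 and 27.9 CPM in the IP libraries (log2 -5.03 ± 0.03). Both genes were also picked for having no overlap between IP and Input libraries, so that their separation was set by the choice. Lox, the collagen cross-linking enzyme lysyl oxidase, stood at 71.4, 69.4 and 72.1 CPM in the Input libraries and 0.282, 0.135 and 0.1399 CPM in the IP libraries (log2 -8.57 ± 0.10). Cxcl5, a neutrophil-attracting chemokine, had 6790 counts over the 3 Input libraries and 1 count over the 3 IP libraries, a ratio of Input over IP of 7770 with a 95% counting interval from 1390 to 307000. Cxcl1, another neutrophil-attracting chemokine, stood at 33.6, 34.4 and 33.04 CPM in the Input libraries and 0.576, 0.713 and 0.496 CPM in the IP libraries (log2 -5.82 ± 0.10). Il12b, the p40 subunit of interleukin-12 and interleukin-23, stood at 66.99, 65 and 66.1 CPM in the Input libraries and 1.79, 1.81 and 1.46 CPM in the IP libraries (log2 -5.29 ± 0.07). Nfkbiz, an inducible nuclear IkB protein, stood at 178, 175 and 181 CPM in the Input libraries and 5.21, 5.92 and 5.67 CPM in the IP libraries (log2 -4.99 ± 0.04). The remaining 5 were Ms4a7 (-6.46) and Ms4a6b (-5.80), membrane proteins of macrophages, Clec4a1 (-5.996), a C-type lectin, Pltp (-5.33), a phospholipid transfer protein, and Ednrb (-5.30), an endothelin receptor. None of these 12 genes held a shared peak.

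**Figure D2:**
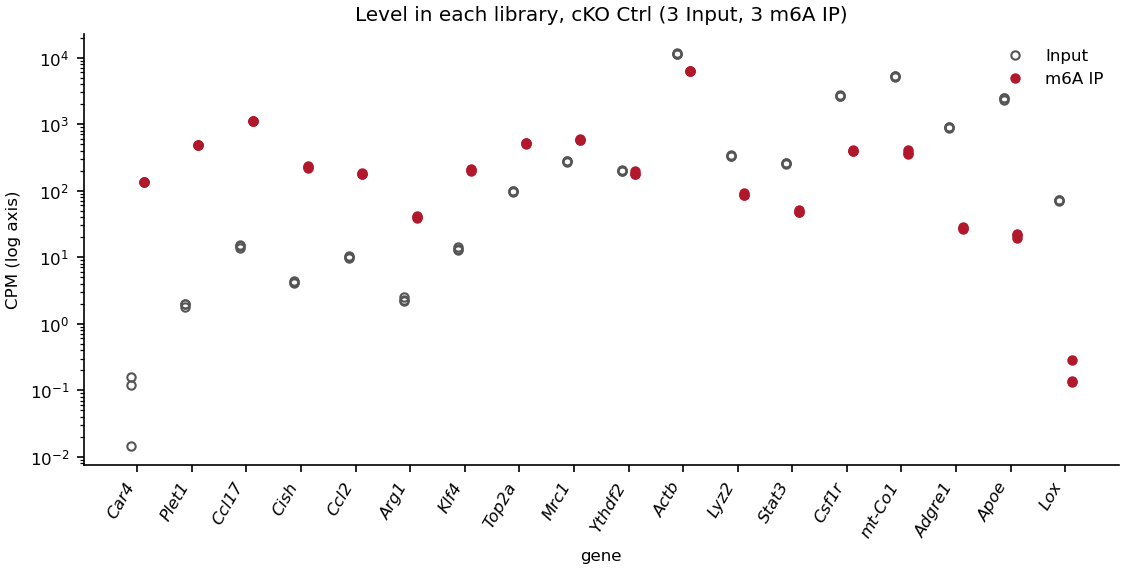
TMM-scaled CPM on a log axis is drawn for each of the 3 Input and 3 IP libraries of 18 named genes, open for Input and filled for IP, 1 point per library. Points of Plet1, Ccl17 and Cish rise and those of Apoe and Adgre1 fall between Input and IP by far more than the 3 libraries of either kind differ.

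The transcripts most abundant in Input were depleted. All 10 genes with the highest Input level were depleted and none held a shared peak. The mitochondrial ribosomal RNAs mt-Rnr1 and mt-Rnr2 had log2 ratios of -4.86 and -4.46, and mt-Co1, a subunit of cytochrome oxidase, had -3.78. Fth1 (-1.81) and Ftl1 (-1.42), the ferritin chains, and Cd74 (-1.57), the invariant chain of MHC class II, were depleted more than Psap (-1.32), Ctsb (-1.16), Actb (-0.87) and Eef1a1 (-0.50). Mitochondrially encoded genes took between 5.34% and 5.51% of the counts in Input and between 0.433% and 0.501% in IP. Their 13 protein-coding members were all depleted, with a median log2 of -2.47 and a range from -3.78 to -0.98 (mt-Nd2). Across all genes tested, ranked by Input level and split into 4 equal groups, 63.9% of the top group were depleted and 30.7% enriched. The median log2 ratio was -0.40 there, against 0.23, 0.25 and 0.11 in the lower 3 groups. The Input level enters both axes of that comparison. Ccl6, a chemokine gene, was among the enriched genes of the top group. It had a mean of 1219.5 CPM in Input and 8573.7 CPM in IP (log2 2.81 ± 0.02) and held 3 shared peaks.

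Most genes of the m6A writers and erasers were themselves enriched. The counts of each list below stand beside 40.7% enriched and 39.7% depleted over all genes. Of 11 writer and eraser genes, 9 were enriched and 2 depleted (median log2 0.58, against 0.01 for all genes), and 8 held shared peaks. Virma, the largest subunit of the writer complex, stood at 97.1, 96.7 and 97.7 CPM in the Input libraries and 232, 232 and 226 CPM in the IP libraries (log2 1.24 ± 0.03) and held 9 peaks. Rbm15 (1.16) and Rbm15b (0.82), which bring the complex to RNA, and Wtap (1.08), its regulatory subunit, were enriched too. The catalytic pair had log2 ratios near 0, with Mettl14 enriched by 0.24 and Mettl3 at -0.27, called depleted under TMM and no longer below 0 with library totals. The eraser Alkbh5 stood at 183, 180.2 and 181 CPM in the Input libraries and 84.9, 88.4 and 83.2 CPM in the IP libraries (log2 -1.08 ± 0.03), whereas Fto was enriched by 0.25. Of 11 readers, 5 were enriched and 5 depleted, near the shares over all genes, and with library totals 6 and 3. Hnrnpa2b1 (0.95), Ythdc1 (0.63), Ythdf3 (0.54) and Ythdf1 (0.25) were enriched, and Igf2bp2, which stabilises methylated transcripts, stood at 47.9, 47.4 and 52.4 CPM in the Input libraries and 8.18, 7.19 and 8.37 CPM in the IP libraries (log2 -2.64 ± 0.06). Of 31 genes of deadenylation and decay, 22 were depleted and 5 enriched (median -0.44), and with library totals 17 and 8. The decapping scaffold Edc4 (-1.63), the exonuclease Xrn1 (-1.19), the deadenylase Cnot6l (-1.26) and the ARE-binding protein Zfp36l1 (-1.22) were lowest, and the deadenylase recruiter Tob1 (0.91) was highest.

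**Figure D3:**
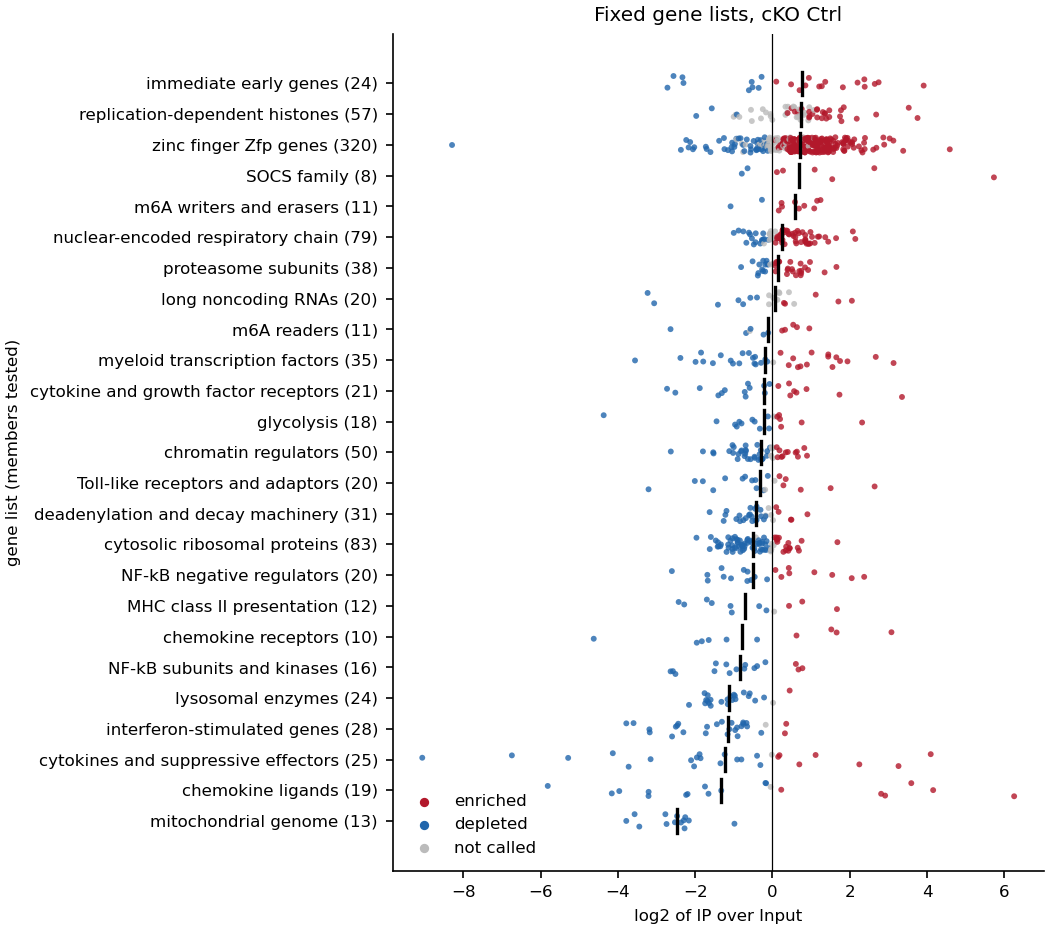
Each row is 1 fixed gene list and each point 1 tested member, placed by its log2 ratio of IP to Input (horizontal axis), with enriched, depleted and uncalled members in separate colours and the list's median as a bar. Lists of lysosomal enzymes, interferon-stimulated genes and mitochondrial genes lie almost wholly below 0, and writers and erasers, zinc finger genes and histones lie mostly above it.

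Most SOCS genes were enriched, and most NF-kB subunits and kinases were depleted. The SOCS family, whose members end cytokine receptor signalling, had 6 of 8 members enriched and 2 depleted (median 0.68), and 5 held shared peaks. Beside Cish, Socs6 stood at 35.9, 34.5 and 35.2 CPM in the Input libraries and 223, 215 and 219 CPM in the IP libraries (log2 2.64 ± 0.03) and Socs1 at 10.6, 8.47 and 9.48 CPM in the Input libraries and 26.5, 28.3 and 28.6 CPM in the IP libraries (log2 1.55 ± 0.07), while Socs2 had 1.09. Socs3 (-0.64) and Socs7 (-0.79) were depleted. Among 20 negative regulators of NF-kB signalling 8 were enriched and 12 depleted (median -0.51), with the enriched share near that of 40.7% over all genes. With library totals 9 were enriched and 11 depleted (median -0.21). The study picked some of these regulators, among which are Metrnl and Smpdl3b, from libraries of this series, so their direction is not independent evidence. Smpdl3b, a phosphodiesterase that dampens Toll-like receptor signalling, had 1.08 with 4 peaks, and Metrnl, a secreted protein, had 0.44 with 2. Tnfaip8l2, another inhibitor of Toll-like receptor responses, was the highest member and stood at 47.6, 46.8 and 44.3 CPM in the Input libraries and 234, 246 and 239 CPM in the IP libraries (log2 2.37 ± 0.03). Depleted members included Nfkbia (-1.26), which encodes IkBa, and Tnfaip3 (-0.65), which encodes A20. Zc3h12a, the endoribonuclease Regnase-1, was the lowest at 130.4, 129 and 131 CPM in the Input libraries and 19.7, 22.2 and 22.3 CPM in the IP libraries (log2 -2.60 ± 0.04). Of the 16 NF-kB subunits and kinases, 13 were depleted and 3 enriched (median -0.83). All 5 DNA-binding subunits were depleted by more than 2-fold, namely Relb (-2.64), Nfkb2 (-2.58), Rel (-2.51), Nfkb1 (-1.50) and Rela (-1.46), and none held a shared peak. The 3 enriched members were the upstream adaptors Tab1 (0.78), Traf6 (0.67) and Tab2 (0.61).

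Immediate early genes were split by member. Of 24, 15 were enriched and 9 depleted (median 0.78), and 14 held shared peaks. Klf4, a zinc finger factor of monocyte differentiation, stood at 13.4, 13.01 and 14 CPM in the Input libraries and 195, 211 and 204 CPM in the IP libraries (log2 3.91 ± 0.04), with a peak at chr4:55531681-55532460 of folds 18.7, 14.1 and 16.3. Myc stood at 28.6, 27.4 and 27.6 CPM in the Input libraries and 186, 189 and 186 CPM in the IP libraries (log2 2.75 ± 0.03) and Egr2 at 54.03, 53.7 and 55.9 CPM in the Input libraries and 338, 343 and 345 CPM in the IP libraries (log2 2.65 ± 0.03). Against these, the orphan nuclear receptor Nr4a3 stood at 269, 272 and 273 CPM in the Input libraries and 39.7, 40.4 and 43.6 CPM in the IP libraries (log2 -2.72 ± 0.03), and Fos had -2.33 and Nr4a2 -2.30.

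Interferon-stimulated genes were almost wholly depleted. Of 28, 25 were depleted, 2 enriched and 1 was not called (median -1.14), and 1 held a shared peak. Rsad2, the antiviral enzyme viperin, stood at 30.8, 30.9 and 26.4 CPM in the Input libraries and 1.66, 2.75 and 1.96 CPM in the IP libraries (log2 -3.78 ± 0.11), Irf7, a transcription factor that amplifies the interferon response, had -3.19, and Oas3, a sensor of double-stranded RNA, had -3.18. The E3 ligase Trim25 (0.36) and the nucleic acid sensor Zbp1 (0.32) were the enriched members.

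Chemokine and cytokine genes were found among both the highest and the lowest ratios. Of 19 chemokine ligands tested, 6 were enriched and 12 depleted (median -1.33), or 8 and 10 with library totals (median -1.03). The CCR2 ligand Ccl2 stood at 9.76, 10.3 and 10.1 CPM in the Input libraries and 178, 181 and 180.3 CPM in the IP libraries (log2 4.16 ± 0.04) and held 3 shared peaks, and its neighbour Ccl7 had 2.92. Ccl5 stood at 477, 483 and 463 CPM in the Input libraries and 29.1, 25.4 and 25.2 CPM in the IP libraries (log2 -4.16 ± 0.04), and Cxcl16, the CXCR6 ligand, stood at 600.2, 593 and 604 CPM in the Input libraries and 62.6, 66.1 and 65.8 CPM in the IP libraries (log2 -3.21 ± 0.03). The IP libraries held 3 counts of Cxcl9 and the Input libraries 46, a ratio of 17.5 with an interval from 5.64 to 88.2. Among 10 chemokine receptors, Ccr1 stood at 73.01, 77 and 76.4 CPM in the Input libraries and 648, 622 and 646 CPM in the IP libraries (log2 3.08 ± 0.03), and Ccr2 (1.52) was enriched too. Cx3cr1, the fractalkine receptor of patrolling monocytes and macrophages, stood at 132, 127 and 127 CPM in the Input libraries and 5.76, 4.51 and 5.34 CPM in the IP libraries (log2 -4.63 ± 0.06). Of 25 cytokines and suppressive effectors 7 were enriched and 17 depleted (median -1.24, unchanged with Il10 at its bound). Arg1, the arginine-depleting enzyme of suppressive myeloid cells, stood at 2.27, 2.19 and 2.56 CPM in the Input libraries and 39.3, 39.9 and 40.9 CPM in the IP libraries (log2 4.10 ± 0.07), and Csf1, the macrophage growth factor, stood at 17.8, 18.9 and 16.3 CPM in the Input libraries and 170.3, 169 and 171 CPM in the IP libraries (log2 3.26 ± 0.04) with 7 shared peaks. Osm (2.25) and Spp1 (1.12) were enriched as well. Nos2, the inducible nitric oxide synthase, had -4.13. Il10 had 186 counts in Input and 0 in IP and was at least 70.9-fold lower in IP, with 3 counts over the group as the floor.

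Receptors were split as well, and lysosomal genes were mostly depleted. Of 21 cytokine and growth factor receptors 8 were enriched and 13 depleted, with a median of -0.22 that turns to 0.08 with library totals. The decoy receptor Il1r2 stood at 2.79, 2.44 and 2.34 CPM in the Input libraries and 26.2, 25.4 and 25.6 CPM in the IP libraries (log2 3.35 ± 0.08) and Il17ra had 1.73, while Csf1r, the receptor of CSF1, stood at 2630.3, 2609 and 2692 CPM in the Input libraries and 391, 405 and 400.5 CPM in the IP libraries (log2 -2.73 ± 0.02) and Csf3r, the receptor of G-CSF, had -2.51. Of 20 Toll-like receptors and adaptors 6 were enriched and 12 depleted (median -0.32), or 8 and 10 with library totals (median -0.03). Tlr4, the receptor of lipopolysaccharide, stood at 59.9, 61.4 and 63.7 CPM in the Input libraries and 403, 375 and 379 CPM in the IP libraries (log2 2.64 ± 0.03) with 6 shared peaks, and Tlr2 had 1.51, whereas its partner Tlr1 stood at 71.4, 71.7 and 67.6 CPM in the Input libraries and 8.18, 7.14 and 7.49 CPM in the IP libraries (log2 -3.21 ± 0.06) and the DNA sensor Tlr9 had -2.01. Among 12 genes of MHC class II presentation 8 were depleted and 3 enriched (median -0.70), which became 6 and 5 with library totals, with H2-Eb1 (-2.43), H2-Aa (-2.28) and H2-Ab1 (-1.70), the classical chains, among the lowest. Of 24 lysosomal genes 22 were depleted and 1 enriched (median -1.12), or 21 and 3 with library totals, from Lipa (-2.16), lysosomal acid lipase, to Ctsc (0.45), which was the enriched member. Of 35 myeloid transcription factors 15 were enriched and 19 depleted, the enriched share near the 40.7% over all genes, with a median of -0.18 that turns to 0.11 with library totals. Tfec, a macrophage-restricted MiT factor, stood at 52.1, 52.5 and 49.6 CPM in the Input libraries and 468, 433 and 453 CPM in the IP libraries (log2 3.14 ± 0.03), with a peak of folds 16.6, 15.9 and 17.6, and Maf, a factor of resident macrophages, stood at 168, 169 and 169.8 CPM in the Input libraries and 14.3, 14.3 and 14.5 CPM in the IP libraries (log2 -3.56 ± 0.04). Cebpe (2.67), a granulocyte factor, and Batf (1.94) were high, and Stat3 (-2.38) was low.

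Ribosomal protein genes were mostly depleted, and zinc finger genes mostly enriched. Of 83 cytosolic ribosomal protein genes 60 were depleted and 17 enriched (median -0.50), and with library totals 46 and 28 (median -0.20). Of 79 nuclear genes of the respiratory chain 51 were enriched and 17 depleted (median 0.25), and of 38 proteasome subunits 23 were enriched and 13 depleted (median 0.14). With library totals the respiratory chain had 62 enriched and 10 depleted and the proteasome 30 and 3. Psmd7 was the highest proteasome subunit, at 169, 171 and 179.8 CPM in the Input libraries and 535, 567 and 537 CPM in the IP libraries (log2 1.66 ± 0.03). Among 18 entries of glycolysis 11 were depleted and 6 enriched, with a median of -0.22 that turns to 0.07 with library totals, and Pfkfb3, which makes the activator of phosphofructokinase, stood at 378, 372 and 367 CPM in the Input libraries and 18.6, 18.1 and 17.4 CPM in the IP libraries (log2 -4.37 ± 0.03). Of 320 zinc finger genes named Zfp 231 were enriched and 45 depleted (median 0.71), or 257 and 29 with library totals, and 135 held shared peaks. Of 57 replication-dependent histone genes 27 were enriched and 3 depleted (median 0.74), although their near-identical copies and lack of a poly(A) tail make these values uncertain. Of 50 chromatin regulators 32 were depleted and 12 enriched (median -0.31), but 23 and 21 with library totals (median -0.01). The helicase Chd3 had -2.63 and the demethylase Kdm6b -1.80, whereas Chd7 (0.89), Ezh2 (0.82) and Dnmt1 (0.63) were enriched.

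More genes annotated as lincRNA were enriched than depleted. Of 410 such genes, 47.1% were enriched and 18.8% depleted (median 0.71). The list of 20 better known long noncoding RNAs had 5 enriched and 7 depleted (median 0.08), or 11 and 6 with library totals. Of 492 antisense genes the shares were 34.2% and 17.7%. AU022793 stood at 8.19, 7.402 and 7.42 CPM in the Input libraries and 116, 118 and 119 CPM in the IP libraries (log2 3.94 ± 0.05) and held 4 shared peaks, and Pvt1, the neighbour of Myc, had 2.06. Among known RNAs, Malat1 stood at 822, 824 and 819 CPM in the Input libraries and 559, 544 and 555 CPM in the IP libraries (log2 -0.57 ± 0.02), Neat1 had 0.30, and the small nuclear RNA Rn7sk had -3.06.

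Shared peaks lay mainly in coding sequence. Of the 10918, 54.2% had their summit in coding sequence, 15.4% in a 3′ UTR, 3.2% in a 5′ UTR and 16.6% in an intron of the reference transcript, and 18.6% lay within 200 bases of a stop codon. Among the 3240 peaks that reached 4-fold in each library, 46.1% lay in coding sequence, 9.3% in a 3′ UTR and 25.3% in an intron. Only 11.0% of them lay within 200 bases of a stop codon. Within coding sequence divided into 20 bins, the first bin held 3.68% of the peaks and the highest of the last 5 bins held 7.38%. Within 3′ UTRs the first bin held 15.4% of the peaks and the last 0.30%. Coding peaks lay in exons with a median length of 459 bases, and 53.1% of them in exons of at least 400 bases, which hold 32.0% of the coding bases of the same genes.

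**Figure D4:**
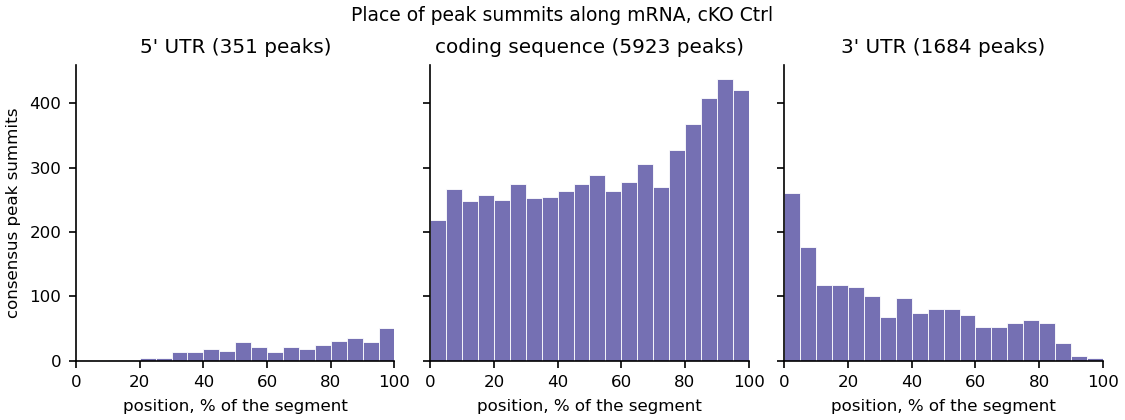
The number of shared peak summits (vertical axis) is drawn in 20 bins along 5′ UTRs, coding sequence and 3′ UTRs, each scaled from its start to its end in percent (horizontal axis). Counts rise towards the end of the coding sequence, and they fall along the 3′ UTR from 15.4% of its peaks in the first bin.

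Peaks and whole-gene ratios went together, as both were read from the same IP libraries. Of the 15381 genes tested, 4392 (28.6%) held a shared peak, and 3910 of those (89.0%) were enriched as whole genes, against 21.4% of the 10989 genes without one. No gene with a log2 ratio under -2 held a peak (of 1134), and 11 of 2039 between -2 and -1 did. The share was 46.2% between 0 and 1 and 65.5% between 1 and 2, and it was lower, 43.7%, above 3. A single peak was found in 44.5% of the marked genes and 5 or more in 502 genes. Among the 10 genes with the most peaks, Cenpe, a kinetochore motor, held 29 peaks and stood at 44.2, 41.02 and 40.5 CPM in the Input libraries and 256, 245 and 251 CPM in the IP libraries (log2 2.58 ± 0.03). Top2a, topoisomerase II, held 22 and had 2.39, the condensin subunit Smc4 held 20 and had 1.88, and Cenpf, another kinetochore protein, held 16 and had 3.33. The others were the kinesin Kif20b, the condensin subunit Smc2, the histone methyltransferase Nsd2, the signalling adaptor Eps8, the spindle protein Tpx2 and the mannose receptor Mrc1. The fold at a peak was above the ratio of its whole gene in 84.8% of 10515 peaks, and by at least 2-fold in 24.5% of them. Genes of the highest ratios could go the other way. The gene ratio was 253-fold in Plet1, 76.5-fold in Ccl17 and 64.2-fold in Ffar2. Their best peaks had folds of 51.6, 9.52 and 23.4 in the weakest library. The peak fold and the gene ratio ranked alike across peaks (Spearman rho 0.718) and are not independent of each other.

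Enriched and depleted genes differed in structure. The 2468 protein-coding genes enriched at least 2-fold had a median exonic length of 3540 bases, 6 exons and a GC content of 49.6%. The 7555 other genes had 4537 bases, 9 exons and 50.3%, and the 2568 depleted at least 2-fold had 5175 bases, 11 exons and 51.5%. Genes with a single exon made up 5.79%, 2.44% and 2.26% of these groups. Of the 385 single-exon genes tested, 55.8% were enriched and 22.1% depleted, and of the 5830 genes with at least 10 exons 33.6% were enriched and 53.8% depleted. The median Input level also differed, at 7.57 CPM in the enriched, 30.4 CPM in the other and 31.1 CPM in the depleted genes, and its part in the difference was not tested.

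The ratio was then compared with that of the WT Ctrl libraries. The comparison asked where the antibody signal relative to Input differed between the genotypes. Across 16388 genes the log2 ratios of the 2 groups, which share no library, ranked alike (Spearman rho 0.914) and had the same sign in 90.3%. The test of the difference called 2030 genes (12.4%) with a higher ratio in cKO and 2540 (15.5%) with a lower one, of which 357 and 273 differed at least 2-fold. The libraries labelled cKO held fewer peaks than those of WT Ctrl (mean 15941 ± 393 against 17477 ± 114, SD, n = 3 each), with no overlap and a two-sided exact permutation p of 0.1, the smallest that 3 against 3 allows. Of the cKO shared peaks 85.5% overlapped a shared WT peak, and 211 (1.9%) were found in no WT library. Of the 12181 shared WT peaks 75.9% overlapped a shared cKO peak, and 587 (4.8%) were found in no cKO library.

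**Figure D5:**
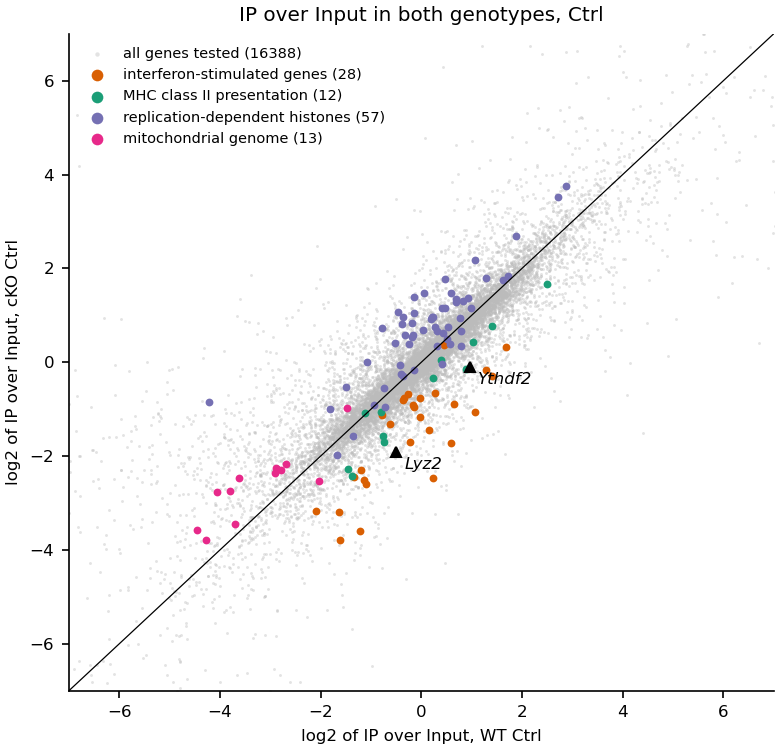
The log2 ratio of IP to Input in cKO Ctrl (vertical axis) is plotted against that in WT Ctrl (horizontal axis) for each of 16388 genes, with members of 4 lists coloured, Ythdf2 and Lyz2 as triangles, and a line where both ratios are equal. The axes run from -7 to 7 and leave out 144 genes beyond them; most points lie near the line, nearly all interferon-stimulated genes lie below it and most histone genes above it.

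Interferon-stimulated genes had the lowest median difference among the lists. Their ratio was lower in cKO than in WT Ctrl in 27 of 28 members and higher in none (median -1.24 against -0.01 for all genes), and the median itself moved from -0.19 in WT to -1.14 in cKO. The Input level of these genes was higher in cKO than in WT by a median log2 of 0.92, and their IP level was lower by 0.21. For Ifit1, an antiviral RNA-binding protein, Input was 24.96 ± 0.496 CPM in cKO and 7.86 ± 0.261 CPM in WT, and IP was 7.56 ± 0.274 CPM and 11.8 ± 0.781 CPM (SD, n = 3 each). Its ratio was therefore -1.72 in cKO and 0.59 in WT, a difference of -2.31 ± 0.10 (adjusted p = 2.2e-17, edgeR). Rsad2 differed by -2.17 ± 0.16, with Input at 29.1 ± 2.57 CPM in cKO and 12.2 ± 0.889 CPM in WT. Among chemokine ligands 14 of 19 had a lower ratio in cKO and none a higher one (median -0.80), among them Cxcl10 (-2.46). Among MHC class II genes 9 of 12 were lower and none higher (median -0.71), where Input was higher in cKO by a median log2 of 0.18 and IP lower by 0.45. Of the histones 15 of 57 were higher, none lower and 42 not called (median 0.66), where Input was lower in cKO by a median log2 of 0.41 and IP by 0.08. Of the mitochondrial genes 9 of 13 were higher and 1 lower (median 0.55). Of the NF-kB negative regulators 13 of 20 were lower and none higher (median -0.28), including Smpdl3b (-0.74) and Metrnl (-0.21). Of 83 cytosolic ribosomal protein genes 47 were lower and 2 higher (median -0.15).

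The single genes with the largest differences were named by size. Tmem176a, a membrane protein of dendritic cells and macrophages, had IP levels of 5.75 ± 0.3904 CPM in cKO and 15.3 ± 1.09 CPM in WT at Input levels of 99.6 ± 1.56 and 84.7 ± 0.279 CPM, a difference of -1.64 ± 0.07. Wnt6, a Wnt ligand, had 28.2 ± 1.42 CPM in cKO Input and 14.8 ± 0.817 CPM in WT Input and differed by -1.72 ± 0.09. Lyz1 (-1.63 ± 0.10) is nearly identical to Lyz2 (-1.42 ± 0.03), so that its counts are uncertain where Lyz2 differs so much between the genotypes. Car4 differed by -3.18 ± 0.98 (adjusted p = 0.014), but the value rests on 20 Input counts in cKO and 1 in WT, and the adjusted p was 0.0606 without cKO Input library 1, 0.0586 without WT Input library 1 and 0.0596 without WT Input library 2. The difference itself ran from -5.16 (without WT Input library 3) to -2.71 when 1 library was left out. Ythdf2 itself differed by -1.07 ± 0.05, with IP at 183 ± 9.02 CPM in cKO and 207 ± 5.24 CPM in WT. On the other side, Fabp4, a fatty acid carrier of macrophages, had IP levels of 31.4 ± 0.401 CPM in cKO and 10.3 ± 0.423 CPM in WT at Input levels of 69.8 ± 1.52 and 73.2 ± 2.005 CPM, a difference of 1.67 ± 0.06. Spic, the factor of iron-recycling macrophages, differed by 1.75 ± 0.17, with IP at 1.97 ± 0.226 CPM and 0.669 ± 0.0943 CPM. Ahnak2, a large scaffold protein, differed by 1.66 ± 0.08 and Ripor2, an inhibitor of RhoA, by 1.67 ± 0.11. Ffar2 differed by 1.65 ± 0.12 and Pknox2 by 2.06 ± 0.18, with Pknox2 Input at 0.766 ± 0.125 CPM in cKO and 1.92 ± 0.447 CPM in WT. Bc1, a short noncoding RNA, had a ratio of -3.23 in cKO and 0.27 in WT, and Malat1 had -0.57 and -1.88. Where Input differs between the genotypes, a change in the amount of a transcript and a change in its pull-down both enter the ratio and cannot be told apart here.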

How the data were processed

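Poly(A) RNA of bead-sorted CD11b+ cells was fragmented, immunoprecipitated with an m6A antibody and sequenced in a stranded format. The authors' reads went through Trimmomatic 0.39 and HISAT (mm10), per the labels and methods, and the deposited raw counts per gene were made with HTSeq on a GENCODE annotation. The deposited peaks were called by MACS2 on each library and strand, each with a score, a fold enrichment (ratio) and −log10 values of p and q, of which the fold was used. Which control the peak calls used is not given in the sources used here. Reads that HTSeq assigned to no gene were 4.24 to 4.29% of the Input and 3.43 to 3.51% of the IP totals and were left out. Of 54446 gene identifiers 54409 were matched to the GENCODE vM21 annotation of GRCm38 for names and structure.

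From the deposited counts, genes that reached 10 counts in 3 or more libraries were fitted with the quasi-likelihood test of edgeR 4.0.16 (R 4.3.3) with TMM scaling, and p-values were adjusted by Benjamini-Hochberg over all genes tested. The 6 cKO Ctrl libraries were fitted for IP over Input, and the 12 Ctrl libraries with an interaction term for the difference from WT Ctrl. The standard error of a log2 ratio was its size divided by the root of the F statistic. Shared peaks were regions called in all 3 libraries with an overlap of at least 1 base on the same strand. Genomic sequence came from the RefSeq copy of GRCm38. DESeq2 1.42.0, other scalings and filters, wider fits, a replicate block and leaving out libraries were alternatives. The fits were tested on simulated data. Intervals on counts cover counting error only.

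The libraries, gene lists and tests were chosen with earlier results of these data known. The rule for named genes took up to 4 highest and 4 lowest members of each list (all members of lists of up to 20), the 12 highest and 12 lowest called protein-coding genes with a mean of at least 10 CPM and no overlap between IP and Input libraries, the 10 most abundant genes, the 10 with the most peaks, the 6 highest and lowest differences from WT, the 6 highest and lowest noncoding RNAs, and Ythdf2 and Lyz2. Cdh1, S100a8, S100a9, Ly6g, Retnlg, Itgax and Flt3 were named after their values were seen. The irradiated libraries were not used here except in an alternative fit. A few genes that the rule names are not reported here.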

Additional observations from a re-analysis of the deposited data

Results flagged for a closer look

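The IP over Input ratio of 19 named genes differed between the libraries labelled cKO and those of WT Ctrl by the interaction test of edgeR, with both groups unirradiated. It was lower in cKO (log2) for Bc1 (-3.50), Car4 (-3.18), Cxcl10 (-2.46), Ifit1 (-2.31), Rsad2 (-2.17), Wnt6 (-1.72), Tmem176a (-1.64), Lyz1 (-1.63), Lyz2 (-1.42), Ythdf2 (-1.07), Smpdl3b (-0.74) and Metrnl (-0.21). It was higher in cKO for Pknox2 (2.06), Spic (1.75), Fabp4 (1.67), Ripor2 (1.67), Ahnak2 (1.66), Ffar2 (1.65) and Malat1 (1.31). Among all genes tested, 12.4% were called higher and 15.5% lower, so differences of this kind were common in these libraries. Mean Input levels differed between the genotypes as well. They were higher in cKO for Ifit1, Rsad2, Wnt6 and Ythdf2, and lower in cKO for Lyz2, Pknox2, Ffar2, Ripor2 and Ahnak2. In proportion, they lay closer together for Tmem176a, Lyz1, Spic and Fabp4. The part of these Input differences in the ratio differences was not tested.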

How the results depend on the processing

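The counts of enriched and depleted genes stayed within 1.5 times of 6267 and 6112 under every alternative run. They were 6191 and 6175 with the size factors of DESeq2 in edgeR, 6090 and 6079 with DESeq2, 7739 and 4786 with library totals alone, 6559 and 6448 of 25462 genes without a count filter, and 5666 and 5497 of 12616 genes with at least 50 counts. Leaving out each library in turn gave 6057 to 6149 enriched and 5952 to 6060 depleted genes. The difference from WT Ctrl gave 2186 higher and 2336 lower genes with those size factors and 2281 and 2414 with DESeq2, and 1821 to 2259 higher and 1977 to 2499 lower genes without 1 library, in which the share called higher ran from 43.5 to 52.4%. Among 144 genes examined in this way the direction turned for Mettl3 (0.020, adjusted p = 0.759) and Ythdf2 (0.18), both with library totals alone, which shifts every log2 ratio up. Of 19 named differences, that of Car4 lost its call without 1 of 3 Input libraries. Of the member counts of the 25 lists, 12 moved by more than 1.5 times, 11 of them with library totals. IP and Input libraries of 1 replicate number did not deviate together from their group means (all correlations between -0.02 and 0.02). Technical deviations would be unrelated even in a shared pool of RNA, so this cannot tell whether the numbers pair libraries. The fit with the replicate number as a block gave 6186 enriched and 6055 depleted genes, and 1854 higher and 2389 lower differences from WT. Shared peaks numbered 3240 in 1477 genes when each library's peak had to reach 4-fold, 14891 in 5343 genes when 2 of 3 libraries sufficed, 9753 with a reciprocal overlap of 50%, and 12238 to 12583 without 1 library. The share of windows with GGACT was 12.3% among peaks of at least 4-fold, 5.6% with 25 bases to each side of the summit and 21.1% with 100, as shorter and longer windows must give. The places of peaks also moved at 4-fold. The share within 200 bases of a stop codon was 11.0% instead of 18.6%, and that in introns 25.3% instead of 16.6%. Depth limits genes with few counts, such as Car4, Cxcl5, Cxcl9 and Il10, where only the size of the ratio is uncertain.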
